A study of Mus musculus with 6 samples.

Results

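Fatty acid oxidation and peroxisome genes are described here in irradiated and untreated parotid gland. They are 43 genes listed by symbol, each matched to 1 Ensembl gene among the 52636 in every count table. They were kept as 3 arms of 19 mitochondrial beta-oxidation genes, 12 peroxisomal oxidation genes and 12 peroxins. The regulator Ppara was kept with the mitochondrial arm, and the ether lipid genes Agps and Gnpat with the peroxisomal oxidation arm. RNA came from the parotid, a salivary gland made largely of enzyme-secreting acinar cells. The irradiated group was 3 samples from FVB mice treated with a dose of 5 Gy. The untreated group was 3 samples from FVB mice, and the labels give an age of 28 days for both groups and no genotype change. FVB is an inbred laboratory strain. The time from irradiation to collection is not given in the sources used here, nor is it stated that the samples of a group came from different mice. The p-values therefore measure only how these samples vary, which may be technical. The comparison asks which transcripts differ in irradiated glands, within work on metabolism and loss of salivary function.

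Cells burn fatty acids in mitochondria. Long chains enter as carnitine esters, and a repeating cycle of dehydrogenation, hydration, dehydrogenation and thiolysis then shortens them, with electrons passed to the respiratory chain through the electron transfer flavoprotein. Peroxisomes shorten or trim the chains that mitochondria handle poorly, such as very long and branched ones, and they begin the synthesis of ether lipids. They are built by peroxins, which import enzymes bearing a targeting signal. Ppara encodes a nuclear receptor that binds fatty acids and, in rodent liver, switches on many genes of both pathways.

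Gene counts ranged from 7108359 to 14454646 in the irradiated libraries and from 12722189 to 15036193 in the untreated ones. Irradiated replicate 2 was the shallowest and had 10% of its reads unaligned, against 3.75% to 4.33% in the other libraries. The acinar markers Amy1 and Bpifa2 were abundant in every library, and the 7 acinar markers together summed to between 374300 and 504900 CPM (counts scaled to a common library size with TMM factors). Members had between 11 and 14663 counts in a library. All 43 passed the filter on low counts, so none was lost to it.

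No member passed the test. With p-values from the edgeR quasi-likelihood fit adjusted by Benjamini-Hochberg over 12885 genes, 0 of 43 members were called at an adjusted p under 0.05, where 1.00% of all genes tested were called, 0.652% as higher and 0.349% as lower. DESeq2 and limma-voom also called 0 of 43, where they called 1.48% and 0.194% of all genes. The lowest adjusted p of a member was 0.112, for Acadl. At an unadjusted p under 0.05 there were 10 members under TMM scaling, all lower in irradiated glands, where 15.0% of all genes passed in either direction, 7.51% as higher and 7.46% as lower. With libraries scaled by their totals alone there were 2 members, Etfdh and Agps, both higher. Under that scaling 14.4% of all genes passed as higher and 1.86% as lower. DESeq2 gave 5 members, all lower. Its share over all genes at that threshold was not computed, so that count has no background to be read against. The TMM-scaled libraries of the 2 groups did not overlap for 11 members, 10 of them lower in irradiated glands, against 21.2% of all genes in either direction and 10.6% as lower. Scaled by totals, the groups did not overlap for 6 members, of which Acadm and Pex11a were lower and Etfdh, Ehhadh, Abcd3 and Agps higher, against 18.8% of all genes as higher and 3.19% as lower. The CPM values and overlaps given for single genes below are those under TMM scaling. Fold changes here are log2 values of irradiated over untreated.

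The fold changes were small and leaned to one side. They ran from -0.68 for Phyh to 0.43 for Ppara, with a median of -0.15, against -0.01 over all genes. Of the 43, 36 were negative under TMM scaling, where 50.9% of all genes were negative. But 21 were negative when libraries were scaled by their totals alone, which moved the median of all genes to 0.14. The negative share of all genes under that scaling is not given here. Relative to the median of all genes, 35 members lay below it under TMM scaling and 36 under scaling by totals. By arm, the median was -0.16 for mitochondrial beta-oxidation with 17 of 19 members negative, -0.03 for peroxisomal oxidation with 8 of 12, and -0.21 for peroxins with 11 of 12. Scaled by totals these medians were -0.01, 0.11 and -0.07. Set against the median of all genes they were -0.15, -0.03 and -0.21 under that scaling. Whether the arms differ from each other or from other genes was not tested.

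**Figure D1:**
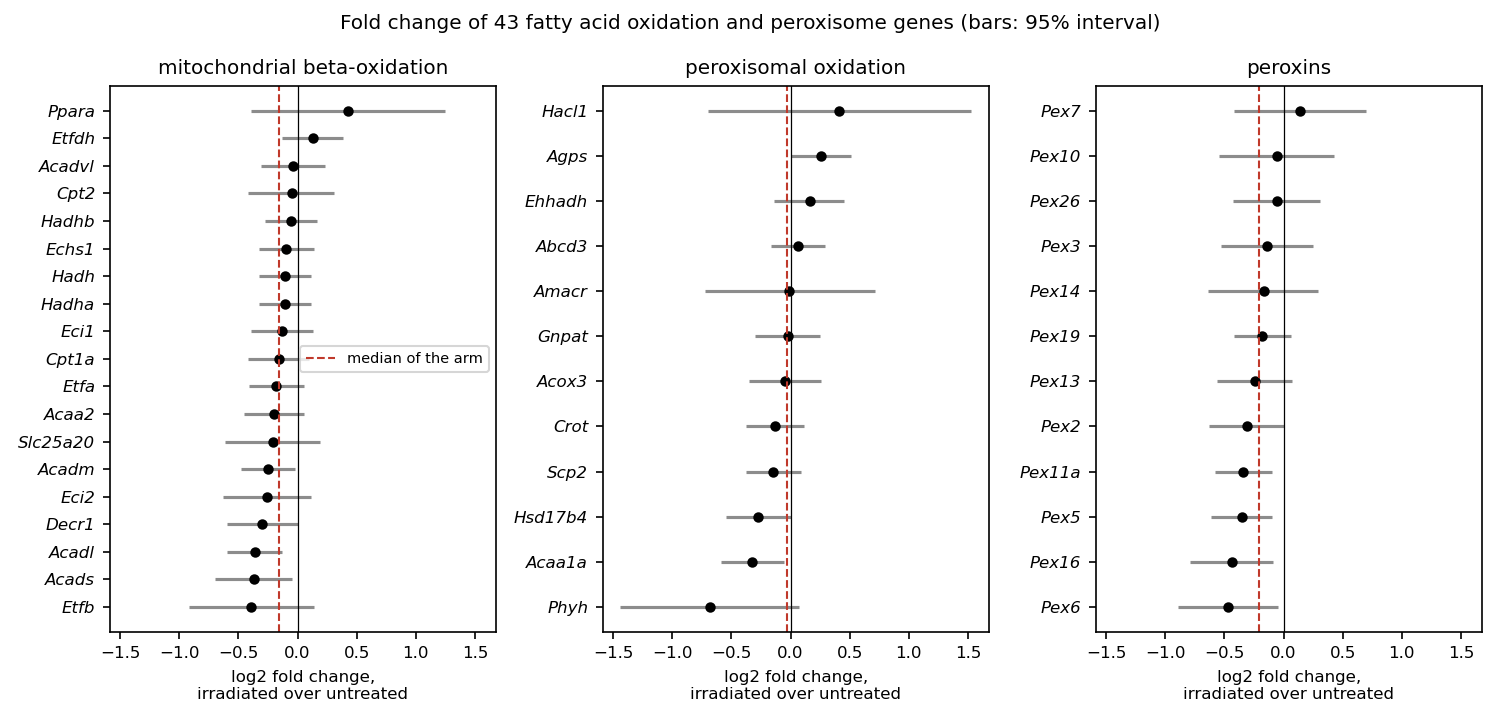
Log2 fold change under TMM scaling of irradiated over untreated glands for the 43 members in 3 arms, with the 95% interval of edgeR's fit as a bar, the arm's median as a dashed line and 0 as a solid line. Most points of the mitochondrial and peroxin arms lie left of 0. In all 36 of 43 do (21 with scaling by totals), where 50.9% of all genes are negative under TMM scaling. The widest intervals belong to Phyh and to the low-count genes Hacl1, Ppara and Amacr.

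Upstream stretches of promoter DNA are printed for members on which the account turns: Phyh, the most abundant; Acadl, with the lowest p; Pex11a, with the lowest p among peroxins; and the gap between Hadha and Hadhb, genes for the partner subunits of the mitochondrial trifunctional protein that lie head to head. The sequences come from RefSeq's promoter windows on build GRCm38.p6. For the first 3 they are the 250 bases before the transcript start on the gene's strand, and for the pair they are the 85 bases between the GENCODE starts, on the Hadhb strand. Capitals mark GGGCGG, the GC box bound by Sp1-type factors, CCGGAAG, the core of ETS factor sites, and AGGTCA, the core of nuclear receptor sites, on either strand.
Phyh upstream (chr2:4918746-4918995, + strand): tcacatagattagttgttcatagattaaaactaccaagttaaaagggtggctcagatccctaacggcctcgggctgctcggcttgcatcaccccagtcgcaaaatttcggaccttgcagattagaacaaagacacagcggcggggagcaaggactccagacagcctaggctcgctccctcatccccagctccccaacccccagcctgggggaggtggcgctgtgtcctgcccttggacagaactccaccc
Acadl upstream (chr1:66863310-66863559, - strand): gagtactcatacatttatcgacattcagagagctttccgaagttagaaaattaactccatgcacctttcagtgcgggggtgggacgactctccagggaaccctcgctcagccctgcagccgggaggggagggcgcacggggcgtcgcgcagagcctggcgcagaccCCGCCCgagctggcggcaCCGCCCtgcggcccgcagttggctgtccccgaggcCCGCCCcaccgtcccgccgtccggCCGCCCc
Pex11a upstream (chr7:79743132-79743381, - strand): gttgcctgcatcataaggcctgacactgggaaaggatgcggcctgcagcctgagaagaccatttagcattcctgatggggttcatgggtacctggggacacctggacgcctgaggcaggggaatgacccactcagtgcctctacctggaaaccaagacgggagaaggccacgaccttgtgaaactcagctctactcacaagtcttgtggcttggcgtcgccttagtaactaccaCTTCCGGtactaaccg
Hadha to Hadhb (chr5:30155163-30155247, + strand): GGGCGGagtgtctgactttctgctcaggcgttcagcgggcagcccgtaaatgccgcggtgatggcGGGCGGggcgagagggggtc
These windows differ in the marked letters: Acadl has 4 GC boxes, the Hadha to Hadhb gap has 2, Pex11a has 1 ETS core, and Phyh has none of the 3 motifs.

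Windows of this kind were found for 37 of the 43 members; Decr1, Acaa2, Hsd17b4, Amacr, Pex2 and Pex19 had none. Of the 37, 26 held GGGCGG in the 250 bases (70.3%), against 63.9% of 9558 tested genes with a window and 32.7% of all 32851 windows. CCGGAAG stood in 18.9% of members and 15.4% of tested genes. The nuclear receptor core AGGTCA stood in 5 members, Acadm, Acadvl, Cpt1a, Echs1 and Scp2, a share of 13.5% against 13.2% of tested genes. The DR1 element that PPAR binds, AGGTCA repeated after a spacer of 1 base, was in 0 of 37 members and in 0.0523% of tested genes. CCAAT stood in 37.8% of members and 40.2% of tested genes, and GCATGCGC, the core of NRF1 sites, in 10.8% and 4.95%, the members being Acadm, Etfa, Etfdh and Ppara. Both strands were searched. AGGTCA lies within the DR1 element, and each motif was searched on its own. A match is a run of letters, not a binding site.

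Entry of fatty acids into mitochondria was measured through 3 genes. Cpt1a, which makes the carnitine esters at the outer membrane (ENSMUSG00000024900; chromosome 19, 3322334 to 3385733), had 31.2, 37.2 and 41.1 CPM in the irradiated libraries and 42.3, 44.0 and 35.8 CPM in the untreated libraries, a log2 fold change of -0.16 (SE 0.12). The groups overlapped. Cpt2, which undoes the ester inside, and Slc25a20, the carrier across the inner membrane, had fold changes of -0.05 (SE 0.17) and -0.21 (SE 0.19). Their levels averaged 8.45 ± 0.272 and 7.34 ± 1.02 CPM in irradiated glands and 8.75 ± 1.29 and 8.45 ± 1.40 CPM in untreated glands (SD, n = 3 each). The muscle form Cpt1b had at most 1 count in any library. Whether its exons overlap those of other genes was not checked, so its level is uncertain.

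The acyl-CoA dehydrogenases carry out the opening step of each cycle and are named by the chain length they prefer. Acadl, for long chains (ENSMUSG00000026003; chromosome 1, 66830839 to 66863277, build mm10), stood at 38.4, 46.1 and 44.5 CPM in the irradiated libraries, against 55.5, 58.3 and 52.1 CPM in the untreated libraries. All irradiated values lay below all untreated values. The log2 fold change was -0.36 (SE 0.11, 95% interval -0.60 to -0.13), and the edgeR adjusted p of 0.112 missed the threshold. Acads, for short chains, had 8.86, 10.6 and 9.24 CPM in irradiated glands and 12.01, 13.6 and 11.5 CPM in untreated glands, again without overlap, at -0.37 (SE 0.15) and an edgeR adjusted p of 0.252. For medium chains, Acadm had 28.8, 25.5 and 30.6 CPM in irradiated glands and 34.2, 35.2 and 31.8 CPM in untreated glands. These also did not overlap, with a log2 fold change of -0.25 (SE 0.11) and an edgeR adjusted p of 0.294. Acadvl, for very long chains, had a fold change of -0.04 (SE 0.13) and overlapping groups. Of its exon bases, 42.9% are shared with Dvl2 on the opposite strand, so its level depends on the strand setting of the counting, which is not given in the sources used here.

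The later steps of the cycle had fold changes from -0.20 to -0.06. Hadha and Hadhb averaged 61.1 ± 1.6 and 44.0 ± 1.55 CPM in irradiated glands and 66.1 ± 5.06 and 46.0 ± 2.22 CPM in untreated glands (SD, n = 3 each). The pair, transcribed away from the shared gap printed above, had log2 fold changes of -0.11 (SE 0.11) and -0.06 (SE 0.11). Per kilobase of exon they were also close, at 7 and 6.68 CPM in irradiated glands and 7.57 and 6.97 CPM in untreated glands. The lengths are merged exons of 8730 bases for Hadha and 6595 for Hadhb, so this closeness depends on the annotation. Hadh, the dehydrogenase for shorter chains, and Echs1, the matching hydratase, stood at -0.11 (SE 0.11) and -0.10 (SE 0.11). Acaa2, the thiolase that cuts off each acetyl unit, had 18.0, 18.4 and 18.7 CPM in irradiated glands and 22.6, 21.5 and 19.2 CPM in untreated glands. Its groups did not overlap, but the log2 fold change of -0.20 (SE 0.12) had an edgeR adjusted p of 0.473.

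Unsaturated chains need helper enzymes. Decr1, the reductase for polyunsaturated chains, had 12.3, 16.8 and 13.8 CPM in irradiated glands and 17.1, 18.7 and 16.6 CPM in untreated glands. Irradiated replicate 2 reached into the untreated range, and the fitted log2 difference was -0.30 (SE 0.14), for an edgeR adjusted p of 0.326. The isomerases Eci1 and Eci2, which move double bonds, had fold changes of -0.13 (SE 0.13) and -0.26 (SE 0.18).

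Electrons leave the dehydrogenases through Etfa and Etfb, the subunits of the electron transfer flavoprotein, and then Etfdh, which hands them to ubiquinone. Etfa had 42.95, 40.4 and 44.4 CPM in irradiated glands and 45.3, 53.5 and 46.1 CPM in untreated glands, without overlap, at a log2 difference of -0.18 (SE 0.11) and an edgeR adjusted p of 0.475. Etfdh lay the other way, at 0.13 (SE 0.12), with overlapping groups. Etfb had 3.73, 3.73 and 4.66 CPM in irradiated glands and 5.27, 3.85 and 6.67 CPM in untreated glands, at -0.39 (SE 0.26). Of Etfb's exon bases, 58.2% are shared with other genes of the same strand, chiefly the predicted gene Gm45233. Reads there would be set aside as ambiguous, so its level is uncertain and cannot be set against that of its partner.

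Ppara, the regulator, was among the lowest members. It had 43, 19 and 19 counts in the irradiated libraries and 18, 27 and 19 in the untreated libraries, or 2.86, 2.29 and 1.64 CPM against 1.48, 2.36 and 1.27 CPM. The groups overlapped, and the 95% interval of the log2 fold change of 0.43 ran from -0.39 to 1.25.

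Phyh stood apart from the other members in abundance. It encodes the peroxisomal hydroxylase that starts the alpha-oxidation of phytanic acid, a branched fatty acid from the diet, and it lies on chromosome 2 (4919019 to 4938730, build mm10; ENSMUSG00000026664). It had 421.4, 531.0 and 609.3 CPM in irradiated glands and 1207, 739.3 and 563.8 CPM in untreated glands. Untreated replicate 1 was the highest by far, and irradiated replicate 3 was above untreated replicate 3. The mean was 520.6 ± 94.4 CPM in irradiated glands and 836.6 ± 332.2 CPM in untreated glands (SD, n = 3 each), with a log2 fold change of -0.68 (SE 0.31, 95% interval -1.44 to 0.07) and an edgeR adjusted p of 0.382. Without untreated replicate 1 the log2 fold change was -0.33, with an edgeR adjusted p of 0.451. Without untreated replicate 3 it was -0.90, with an edgeR adjusted p of 0.0726. With no count filter edgeR gave it an adjusted p of 0.000534, the setting under which it was called.

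Per kilobase of exon, Phyh had 275.0 CPM in irradiated glands and 441.9 CPM in untreated glands. The next members were Etfa, with 23.2 and 26.3 CPM per kilobase in irradiated and untreated glands, and Acadl, with 21.4 and 27.6. Phyh ranked between 54 and 74 among all genes by CPM in the irradiated libraries and between 44 and 58 in the untreated libraries. It made up 60.1%, 66.4% and 67.7% of the summed CPM of the peroxisomal oxidation arm in irradiated glands, and 79.0%, 71.2% and 67.0% in untreated glands, so the arm's total followed Phyh.

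**Figure D2:**
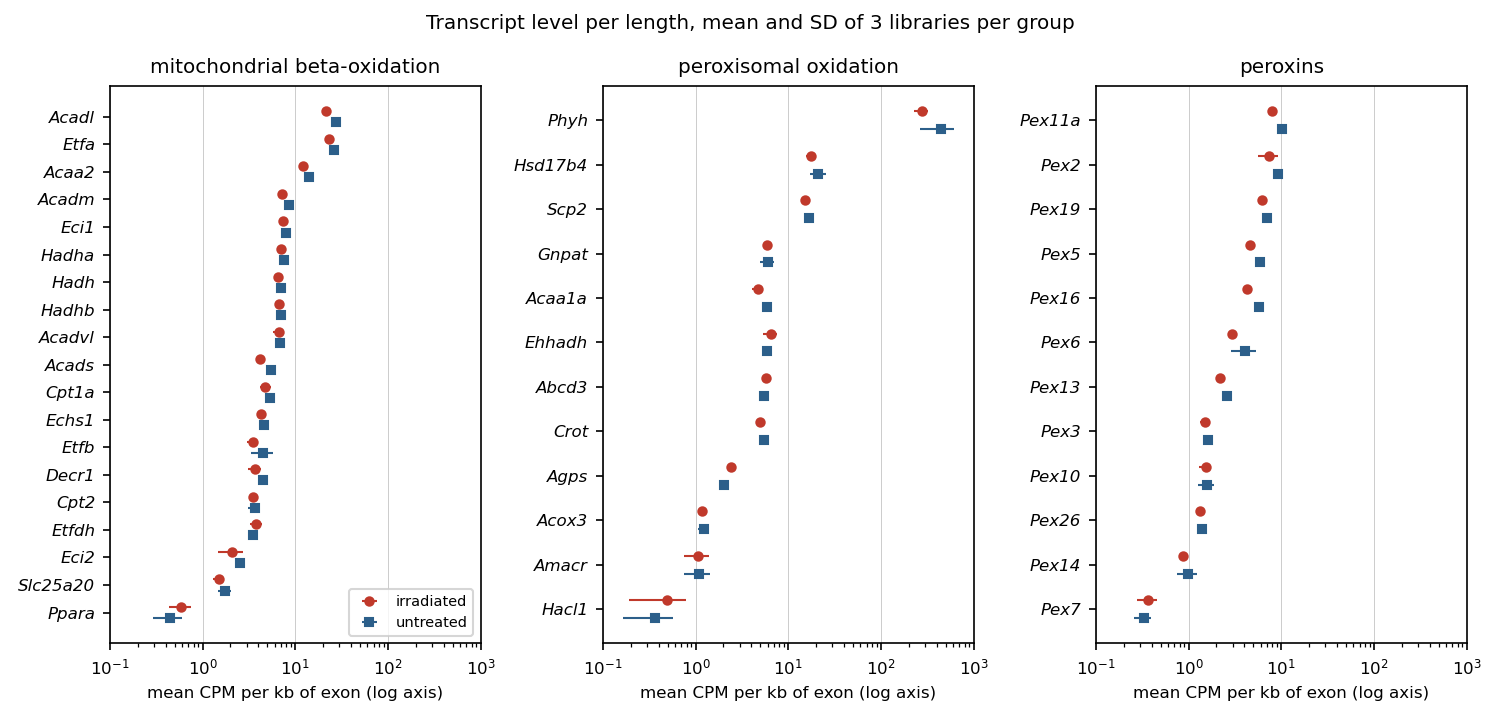
Mean CPM per kilobase of merged exon on a log axis, with the SD of 3 libraries as a bar, for the 43 members in irradiated (circles) and untreated (squares) glands, ordered by the untreated level within each arm. Phyh, at 275.0 and 441.9 in irradiated and untreated glands, lies above every other member, and Ppara, Hacl1 and Pex7 are the lowest of their arms. Merged exons include rarely used ones, so levels of genes with long annotations are understated.

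The enzymes of the peroxisomal cycle had fold changes of both signs. Acaa1a, the peroxisomal thiolase, had 21.7, 17.6 and 23.2 CPM in irradiated glands and 27.7, 22.7 and 28.2 CPM in untreated glands, at a log2 difference of -0.33 (SE 0.13) and an edgeR adjusted p of 0.226. Irradiated replicate 3 exceeded untreated replicate 2. Acaa1a has a close paralog, Acaa1b, and reads that match both are not assigned, so its level is uncertain. Hsd17b4, the hydratase and dehydrogenase for very long and branched chains, had 55.1, 56.4 and 67.1 CPM in irradiated glands and 87.4, 68.6 and 60.5 CPM in untreated glands. Its groups overlapped too, at -0.28 (SE 0.13) and an edgeR adjusted p of 0.332, and untreated replicate 1 was the highest, as for Phyh. Without that library the log2 fold change of Hsd17b4 was -0.12. Ehhadh, the other hydratase and dehydrogenase of peroxisomes, was on the opposite side at 0.16 (SE 0.14), and Acox3, an oxidase for branched chains, at -0.05 (SE 0.15).

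Transport, branched-chain and ether lipid members also had fold changes of both signs. Scp2, a thiolase and sterol carrier, had 52.2, 48.7 and 56.0 CPM in irradiated glands and 63.9, 58.8 and 51.2 CPM in untreated glands, a log2 fold change of -0.15 (SE 0.11) with overlap. Abcd3, the peroxisomal importer of acyl-CoA, stood at 0.06 (SE 0.11), and Crot, which makes carnitine esters of medium chains for export, at -0.13 (SE 0.12). Agps and Gnpat catalyse the opening steps of ether lipid synthesis. Agps had 20.3, 24.4 and 23.8 CPM in irradiated glands and 17.6, 20.0 and 19.6 CPM in untreated glands. It was the member with every irradiated value above every untreated one, at 0.26 (SE 0.12), an unadjusted p of 0.0508 and an edgeR adjusted p of 0.336. Gnpat was at -0.02 (SE 0.13). Amacr, a racemase for branched chains, and Hacl1, a lyase of alpha-oxidation, had fold changes of -0.01 (SE 0.34) and 0.41 (SE 0.52). Hacl1 had 34, 33 and 12 counts in irradiated libraries and 24, 31 and 11 in untreated libraries, and 33.3% of its exon bases are shared with other genes.

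Import of matrix enzymes into peroxisomes was covered by 8 of the 12 peroxins. Pex5, the receptor for the common C-terminal targeting signal (chromosome 6, 124396816 to 124415067), had 18.0, 19.5 and 16.7 CPM in irradiated glands and 24.7, 21.5 and 23.0 CPM in untreated glands. The groups were apart, with a log2 fold change of -0.35 (SE 0.12, 95% interval -0.61 to -0.10) and an edgeR adjusted p of 0.157. Pex7, the receptor for the N-terminal signal that Phyh, Agps and the thiolase bear, was at 0.14 (SE 0.27). Pex13 and Pex14, which form the docking site, were at -0.24 (SE 0.15) and -0.17 (SE 0.22), and 28.3% of the exon bases of Pex14 overlap an opposite-strand gene. Pex2 and Pex10, of the ubiquitin ligase that recycles the receptor, were at -0.31 (SE 0.15) and -0.06 (SE 0.24). Pex2 had 14.9, 14.2 and 21.8 CPM in irradiated glands and 21.9, 22.2 and 19.4 CPM in untreated glands, so irradiated replicate 3 lay among the untreated values.

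Pex6, an ATPase that extracts the receptor from the membrane, had 11.6, 12.4 and 9.93 CPM in irradiated glands and 10.6, 16.5 and 19.6 CPM in untreated glands. Untreated replicate 1 lay within the irradiated range. The fitted log2 difference was -0.47 (SE 0.20), for an edgeR adjusted p of 0.269, and without untreated replicate 1 it was -0.69 with an adjusted p of 0.0409. Without untreated replicate 3 it was -0.27, with an adjusted p of 0.615. Pex26, the anchor of that ATPase, was at -0.06 (SE 0.18).

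Peroxins of the membrane and of division followed. Pex11a, which elongates peroxisomes before they divide (chromosome 7, 79735957 to 79743131), had 23.3, 24.4 and 28.3 CPM in irradiated glands and 30.9, 34.1 and 31.2 CPM in untreated glands. No values overlapped, and the fitted log2 difference was -0.34 (SE 0.11, 95% interval -0.58 to -0.10), for an edgeR adjusted p of 0.153. Pex16, Pex3 and Pex19 insert membrane proteins. Pex16 had 7.66, 7.58 and 7.25 CPM in irradiated glands and 9.30, 9.97 and 11.1 CPM in untreated glands, also apart, at -0.44 (SE 0.17) and an edgeR adjusted p of 0.210. Pex19, the carrier of membrane proteins, had 25.5, 23.8 and 21.6 CPM in irradiated glands and 27.1, 28.5 and 24.95 CPM in untreated glands, at -0.18 (SE 0.11). Irradiated replicate 1 overlapped untreated replicate 3. Pex3, the membrane receptor of Pex19, was at -0.14 (SE 0.19).

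**Figure D3:**
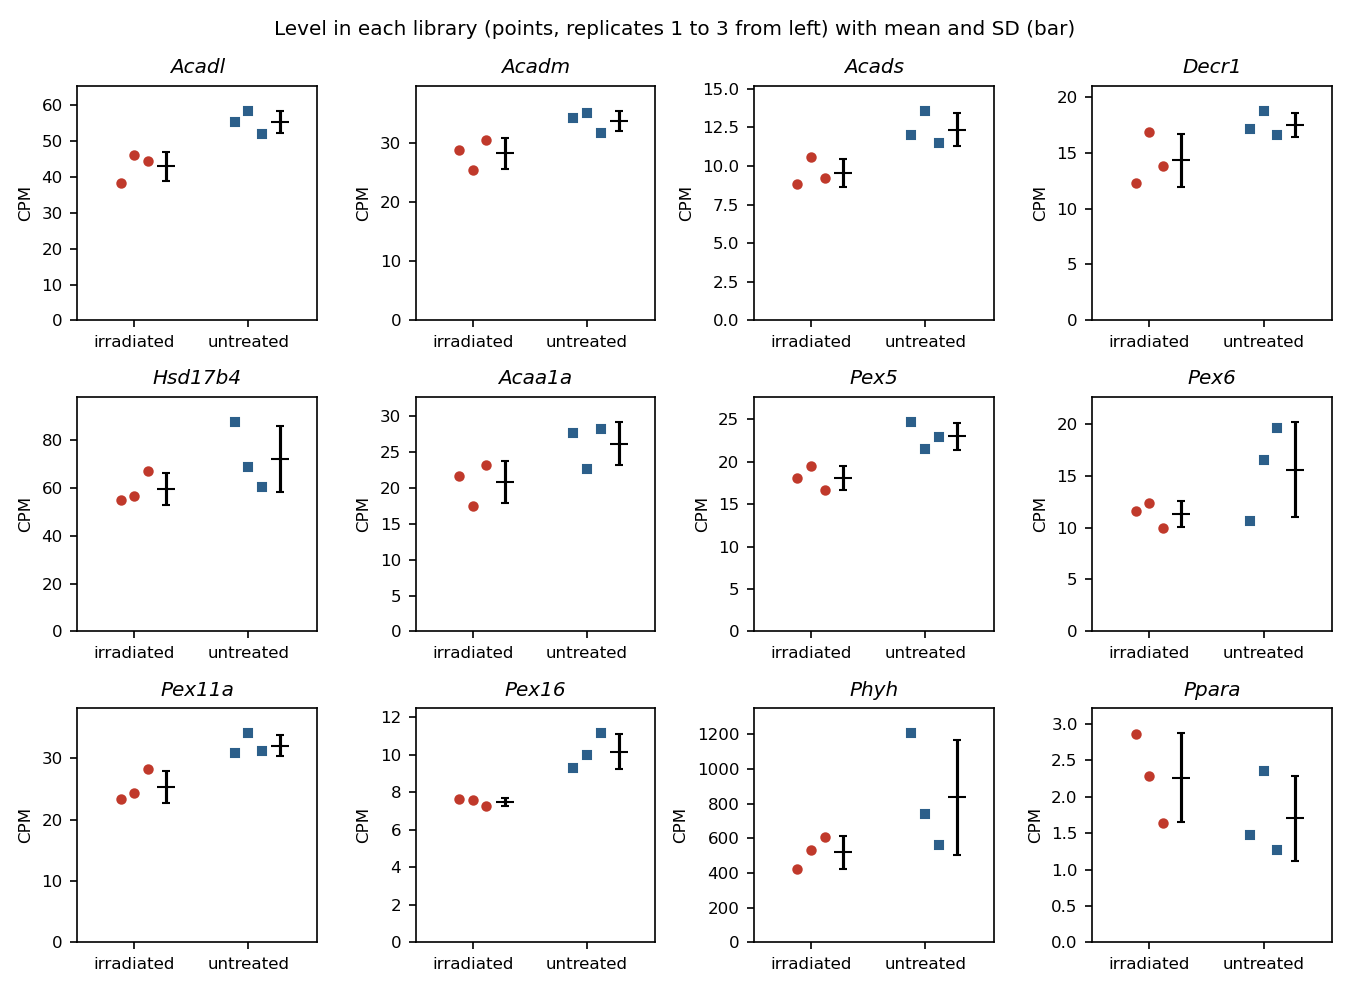
TMM-scaled CPM in each library for the 10 members with an unadjusted p under 0.05, and for Phyh and Ppara, with points for replicates 1 to 3 and a bar for the mean and SD, on axes that start at 0. Irradiated and untreated points are apart for Acadl, Acadm, Acads, Pex5, Pex11a and Pex16 and overlap in the other panels, and scaled by totals Acadm and Pex11a alone of these stay apart, and untreated replicate 1 of Phyh is at 1207 CPM.

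Summed over its 12 genes, the peroxin arm had 140.0, 143.9 and 143.9 CPM in irradiated glands and 165.2, 175.5 and 175.0 CPM in untreated glands. The mitochondrial arm summed to 446.9, 453.0 and 482.9 CPM in irradiated glands and 507.5, 533.3 and 499.6 CPM in untreated glands. In both sums every irradiated library lay below every untreated one under TMM scaling, and with scaling by library totals both overlapped. Scaled by totals, the peroxin sums were 145.4, 168.3 and 137.5 CPM in irradiated glands and 157, 157.8 and 174.5 CPM in untreated glands, and the mitochondrial sums 464.3, 529.8 and 461.2 CPM in irradiated glands and 482.3, 479.4 and 498.1 CPM in untreated glands. The peroxisomal oxidation arm without Phyh summed to 279.9, 268.9 and 290.1 CPM in irradiated glands and 320.1, 299.7 and 277.3 CPM in untreated glands, which overlap. In whole tissue, fewer cells of a type and less RNA per cell cannot be told apart.

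Markers of fat and muscle, tissues that also express these pathways, varied between libraries. The 8 fat cell markers summed to 210.5, 265.8 and 154.1 CPM in irradiated libraries and 263.8, 216.2 and 424.7 CPM in untreated libraries, with 0 of 8 called and 7 negative. The 8 skeletal muscle markers summed to 505.3, 584.4 and 186.2 CPM in irradiated libraries and 589.7, 708.5 and 745.6 CPM in untreated libraries, and all 8 had negative fold changes, with a median of -0.74 and 0 called. No fat or muscle marker was at 0 in every library. Irradiated replicate 3 was the lowest in muscle and fat markers under TMM scaling. Its sum of mitochondrial beta-oxidation genes was the highest of its group under that scaling, at 482.9 CPM. Scaled by totals, its sum was the lowest of its group, at 461.2 CPM. Without irradiated replicate 3 the median log2 fold change of that arm was -0.21 under TMM scaling. The 4 brown fat markers, Ucp1 among them, summed to at most 2.86 CPM in a library. Lymphocyte markers were higher in irradiated glands, at 33.6, 38.6 and 34.5 CPM in the sum of 8, against 15.9, 0.437 and 11.5 CPM in untreated glands, with 2 of 8 called, and the 4 macrophage markers summed to 46.7, 46.6 and 51.5 CPM against 55.1, 57.3 and 60.3 CPM. Of the 7 acinar markers 1 was called lower, Car6, and the median over the list was -0.31 (log2). The 7 salivary duct markers had a median of -0.19 and 0 called. The part of these cells in the members' values was not tested.

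**Figure D4:**
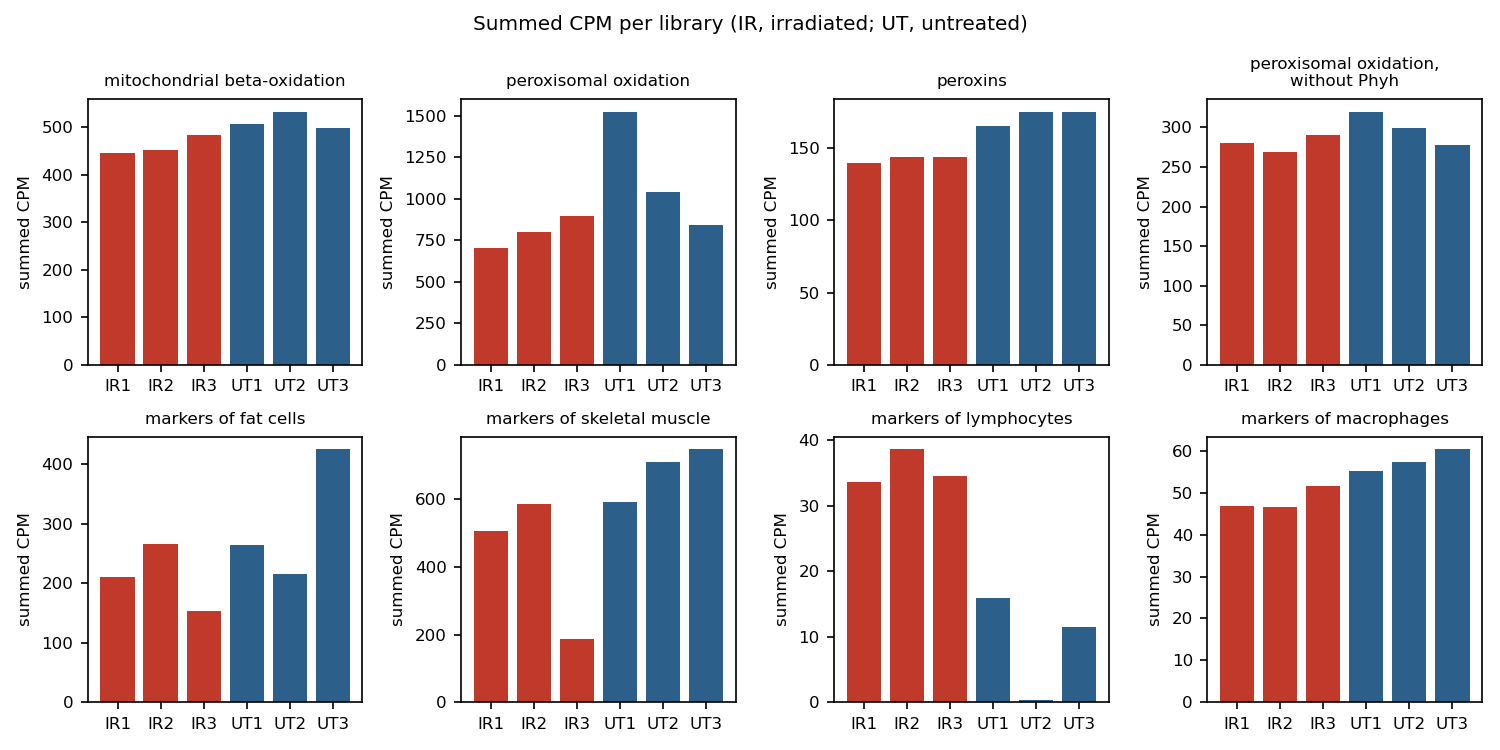
Summed TMM-scaled CPM in each library, irradiated replicates 1 to 3 (IR) left of untreated replicates 1 to 3 (UT), for the 3 arms, the peroxisomal oxidation arm without Phyh, and markers of fat, skeletal muscle, lymphocytes and macrophages, on axes that start at 0. The peroxin sums lie between 140.0 and 143.9 in irradiated and between 165.2 and 175.5 in untreated libraries, a separation not present with scaling by totals, and the muscle sum of irradiated replicate 3, 186.2, is the lowest of the 6.

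The rest of both pathways was read from 3 further lists. In each, edgeR called 0 genes, where 1.00% of all genes were called. Of 33 other fatty acid oxidation genes 29 were tested, with a median log2 fold change of -0.02. By edgeR, 6 had an unadjusted p under 0.05, where 15.0% of all genes did. Acot1, a cytosolic thioesterase that frees fatty acids from CoA, had 8.26, 13.0 and 13.1 CPM in irradiated glands and 14.4, 20.6 and 19.0 CPM in untreated glands. It was lower in every irradiated library, at -0.67 (SE 0.19), with an edgeR adjusted p of 0.0984. Its level is uncertain, since its sequence is close to that of Acot2. Mlycd, which removes malonyl-CoA, the inhibitor of carnitine entry, was at -0.53 (SE 0.18), and Slc27a2, a very long chain acyl-CoA synthetase with at most 35 counts, at -1.41 (SE 0.51). Acsl5, a long chain acyl-CoA synthetase, was at 0.30 (SE 0.12).

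Of 36 other peroxisome genes 30 were tested, with a median of -0.05. By edgeR, 4 had an unadjusted p under 0.05, where 15.0% of all genes did. Far1, which supplies the fatty alcohol used by Agps, had 28.9, 25.3 and 24.8 CPM in irradiated glands and 21.1, 16.9 and 19.7 CPM in untreated glands. Each irradiated value was above each untreated one, at 0.46 (SE 0.12) and an edgeR adjusted p of 0.0722. Fis1, an adaptor of mitochondrial and peroxisomal division, was at -0.38 (SE 0.11), the glutathione transferase Gstk1 at -0.56 (SE 0.17), and the epoxide hydrolase Ephx2 at -0.38 (SE 0.17). The liver oxidases Hao1 and Hao2 and the kidney oxidase Dao had 0 counts in every library.

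Of 21 PPAR partners and targets 16 were tested, with a median of -0.10. By edgeR, 3 had an unadjusted p under 0.05, where 15.0% of all genes did. Ppargc1a, a coactivator that raises mitochondrial gene expression, had 23.8, 20.6 and 26.3 CPM in irradiated glands and 13.7, 20.3 and 17.3 CPM in untreated glands, at 0.47 (SE 0.14) and an edgeR adjusted p of 0.115. Irradiated replicate 2 and untreated replicate 2 differed by little, though the groups did not overlap. Ppard, a relative of Ppara, was at 0.49 (SE 0.19), and Rxra, their shared partner, at -0.29 (SE 0.12). The liver targets Cyp4a10 and Cyp4a14 had 0 counts in every library.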

How the data were processed

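RNA from 3 irradiated and 3 untreated parotid samples was sequenced from total RNA with a stranded kit, per the labels. The deposited values are raw read counts per Ensembl gene; bcl2fastq, HISAT2, HTSeq and build mm10 are named in the submitters' processing notes. Versions, the annotation release and the strand setting are not given in the sources used here. Rows naming no gene held 32.4% to 40.7% of reads per library and were left out. Symbols, coordinates and merged exon lengths came from GENCODE vM21 (mm10), which held 52403 of the 52636 identifiers, and promoter windows from RefSeq. Groups came from sample titles.

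The test was edgeR 4.0.16 (R 4.3.3), quasi-likelihood with robust shrinkage, TMM scaling and filterByExpr (minimum count 10). Counts simulated from the fitted model were used to check that the median of planted fold changes was recovered. That check set no limit on false calls or on the intervals. P-values were adjusted over all 12885 genes, threshold 0.05. SE is the absolute log2 fold change over the root of F. Alternatives were DESeq2 1.42.0, limma-voom 3.58.1, other scalings, no filter, no robust shrinkage, a length and GC offset (mgcv 1.9.3), the replicate number as a block, and leaving out each library. The setting with no robust shrinkage dropped it from the quasi-likelihood fit alone, and the dispersion estimates stayed robust. Intervals reflect spread between libraries.

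The members and lists were chosen with earlier results of these data known. Values by library are given for members with an unadjusted p under 0.05, the 3 highest per length and the 2 largest fold changes of each arm, and Ppara; others shown so (Cpt1a, Agps) were chosen after their values were seen. In other lists up to 4 genes with the smallest p are named. A planned search for peroxisomal targeting signals was not run, as it needed protein sequences.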

Additional observations from a re-analysis of the deposited data

How the results depend on the processing

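Across the 14 alternative settings, 0 of the 43 members were called except in the following. With no count filter 1 was called (Phyh, log2 fold change -0.69), where 2.04% of 25422 genes were. Without untreated replicate 1 the count was 1 (Pex6, -0.69), where 0.825% of 13334 genes were called. The called total over all genes, 129, was 282 with library totals (260 higher, 92.2%, against 65.1%), 518 with no count filter, 26 without robust shrinkage, 25 by limma-voom and 53 with the replicate number as a block, and ranged from 45 to 155 when 1 library was left out, with 45 without irradiated replicate 1 and 77 without untreated replicate 2. DESeq2 gave 191.

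Arm medians of -0.16, -0.03 and -0.21 (mitochondrial, peroxisomal, peroxin) were -0.01, 0.11 and -0.07 with library totals, where the median of all genes moved by about as much. With the length and GC offset the peroxin median was -0.28. Leaving out 1 library gave medians of -0.21 to -0.11 for the mitochondrial arm, -0.14 to 0.00 for the peroxisomal arm and -0.26 to -0.21 for the peroxins. Other fatty acid oxidation genes had 2 calls with no filter (Acot1 and Mlycd) and 1 without untreated replicate 1 (Acot1). Other peroxisome genes and PPAR partners and targets had 1 call each with library totals and with no filter (Far1 and Ppargc1a, both higher). All genes were called at 2.04% with no filter, 2.19% with library totals and 0.825% without untreated replicate 1. With library totals 92.2% of the calls over all genes were higher. Hacl1 reversed to -0.08 without irradiated replicate 2 and ranged up to 0.82 without untreated replicate 2. Fold changes by setting were kept for 19 members only. Leaving out 1 library moved others of these by over 1.5 times, besides Phyh, Hsd17b4 and Pex6 as given above. Decr1 moved to -0.19 (without irradiated replicate 1), Etfa to -0.10 (untreated 2) and Etfb to -0.17 (untreated 3). Scp2 moved to -0.07 (untreated 1) and -0.23 (untreated 3), and Pex2 to -0.54 (irradiated 3). Ppara moved to 0.20 (irradiated 1), 0.73 (untreated 2) and 0.25 (untreated 3). Eci2 was not among the 19. Without irradiated replicate 3 it had the lowest edgeR adjusted p of the mitochondrial arm, 0.131. The sums and overlaps under library totals were added after seeing the data. The causes were not tested.

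The labels state no pairing, so the replicate numbers were not taken as pairs. The r of deviations from group means was 0.020, -0.111 and -0.107 for same-numbered samples. It ran from -0.031 to 0.122 for samples with different numbers. Deviations within a group of 3 sum to 0, so these values are tied together and cannot decide whether samples were paired. The replicate block called 0 members, with arm medians of -0.16, -0.03 and -0.21. Counts were low for Hacl1, Ppara and Amacr, and their intervals span changes in either direction.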
